A study of Mus musculus with 12 samples.

Results

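The circadian clock genes described here are Arntl (also called Bmal1), Clock, Per1, Per2, Per3, Cry1, Cry2, Dbp, Nr1d1 and Nr1d2. They were chosen by gene symbol, and each of the 10 names matched 1 of the 55573 genes in the count matrix. All 10 passed the filter on low counts, which kept 15117 genes.

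The clock of mammalian cells is a loop of transcription and feedback. ARNTL and CLOCK bind DNA as a pair at E-boxes and activate the Per and Cry genes, whose proteins return to the nucleus and repress that pair. The same pair activates Nr1d1 and Nr1d2, nuclear receptors that repress Arntl, and Dbp, an output factor that binds D-boxes, so that in most tissues Dbp, the Nr1d genes and Per3 are high when Arntl is low. Adipocytes hold such a clock, which sets a daily rhythm in genes of lipid handling, and in culture a change of serum or a glucocorticoid can reset it.

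RNA-seq was performed on adipocytes differentiated from the stromal vascular fraction (SVF) of subcutaneous fat, with 4 libraries for each of 3 genotypes of C57BL/6 mice (C57BL/6 J in the methods). PPARγ, the nuclear receptor that drives adipogenesis, was unaltered in WT, carried T166A in TA, where threonine 166 can no longer be phosphorylated, or carried T166D in TD, which imitates the phosphorylated residue. The mutations were introduced by CRISPR-Cas9 into the germ line, so that every cell of the animal carries them, and the mutants were homozygous. All groups received the same medium and were collected on day 8. Induction lasted 4 days with 850 nM insulin, 1 nM T3, 0.5 mM IBMX, 125 nM indomethacin and dexamethasone in 10% serum (the labels give dexamethasone as 5 mM, the methods as 5 μM), and the medium was renewed every 2 days. From then to the harvest a maintenance medium held serum, insulin and T3 only, without dexamethasone, IBMX or indomethacin. IBMX raises cAMP and dexamethasone is a glucocorticoid, and both are known inputs to Per1. Neither the clock time of the harvest nor the hours since the last medium change are given in the sources used here. The labels do not say whether the libraries of a genotype came from separate mice, so p-values measure the spread between these libraries only.

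Depth was 16553324 to 20324286 counts a library. Values are CPM, counts relative to the library total after TMM scaling. The adipocyte markers were present in every library, with a summed level of 11500 to 13700 CPM in WT, 12400 to 16200 in TA and 7810 to 9480 in TD. The summed markers of preadipocytes and fibroblasts were 3140 to 3830 CPM in WT, 2870 to 5030 in TA and 4530 to 6810 in TD. Macrophage markers reached 263 to 765, 127 to 559 and 590 to 826 CPM, and endothelial markers 25.0 to 53.5, 47.2 to 85.3 and at most 126 CPM, in the same order. Skeletal muscle markers summed to 5.4 to 12.6 CPM in WT, where the defining genes Myod1 and Myog were at 0, to 18.4 to 73.4 in TA and to 18.7 to 285 in TD, with the highest sums in TD replicates 3 and 4 (285 and 152 CPM). Every TD library thus lay below WT and TA in the adipocyte sum, above both in the endothelial sum, and above WT in the fibroblast and muscle sums. In bulk RNA, fewer cells of a type and less RNA per cell cannot be told apart. The part that these markers play in the differences between TD and the other genotypes given for clock genes was not tested.

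The promoter sequences of the 3 clock genes that differed between genotypes, Cry1, Nr1d1 and Dbp, are shown first, because the loop acts through short motifs near gene starts. Sequences are from RefSeq on GRCm38.p6, read 5′ to 3′ on the strand of the gene, from 250 bases before the RefSeq start to the last base before an annotated exon. Capitals mark the E-box CACGTG or its variant CACGTT, which reads AACGTG on the other strand.
Cry1 (chr10:85185065-85185304, minus strand): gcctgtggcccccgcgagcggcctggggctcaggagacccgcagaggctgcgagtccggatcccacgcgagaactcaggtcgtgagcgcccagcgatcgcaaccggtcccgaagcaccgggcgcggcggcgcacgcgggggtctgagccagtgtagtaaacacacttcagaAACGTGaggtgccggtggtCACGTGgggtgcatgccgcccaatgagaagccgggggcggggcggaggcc
Nr1d1 (chr11:98775378-98775627, minus strand): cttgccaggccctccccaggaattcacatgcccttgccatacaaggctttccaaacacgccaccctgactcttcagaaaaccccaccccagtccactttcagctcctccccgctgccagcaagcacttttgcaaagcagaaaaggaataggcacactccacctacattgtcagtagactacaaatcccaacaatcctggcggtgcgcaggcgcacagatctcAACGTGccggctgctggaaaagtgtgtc
Dbp (chr7:45704997-45705087, plus strand): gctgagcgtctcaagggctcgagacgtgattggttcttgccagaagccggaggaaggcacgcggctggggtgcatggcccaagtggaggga
The Cry1 promoter holds an E-box 60 bases before the start and the variant 79 bases before it, the Nr1d1 promoter holds the variant 28 bases before the start, and the Dbp window holds neither.

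Of the 10 clock genes, 9 have a promoter window in the RefSeq table used, and Per2 does not. Windows of 250 bases before and 50 after each start were searched on both strands for these motifs, for the D-box (TTATGTAA or TTACGTAA), for the cAMP response element (TGACGTCA) and for the element bound by ROR and NR1D receptors (TAGGTCA or TAGGTTA). No motif searched contains another of them. These further sites are the matches in the other clock genes, with the motif in capitals.
Per1, E-box, 166 bases before the start (chr11:69098772-69098799, plus strand): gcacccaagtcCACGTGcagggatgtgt
Cry2, E-box variant, 166 bases before the start (chr2:92434219-92434246, minus strand): cacatggtgggAACGTGagggggcggag
Per3, D-boxes, 205 and 158 bases before the start (chr4:151044796-151044890, minus strand): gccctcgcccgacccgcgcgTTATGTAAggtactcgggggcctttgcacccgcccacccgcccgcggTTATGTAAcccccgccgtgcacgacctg
Arntl, ROR element, at the second RefSeq start (chr7:113207495-113207521, plus strand): ggtcggaaagTAGGTTAgtggtgcgac
Arntl, ROR element, after the second RefSeq start (chr7:113207531-113207557, plus strand): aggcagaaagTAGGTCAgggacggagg
The 9 genes with a window have 13 windows together, and a motif was found in 6 of these genes. Among all 32851 promoter windows of the table, 7.15% hold the E-box, 4.68% its variant, 1.06% a D-box, 1.79% the cAMP response element, 2.61% TAGGTCA and 1.44% TAGGTTA. These shares are for single motifs in single windows, so the count of genes cannot be set against them. The share of all genes with any of the motifs was not computed. No window of a clock gene holds the cAMP response element. A match is a description of these letters and not a measurement of binding.

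The clock was expressed in all 12 libraries. Levels are compared between genes as CPM per kb of annotated exon. In WT, Per1 was highest with 18.6 ± 0.838 CPM per kb (SD, n = 4) and Nr1d1 followed with 17.8 ± 1.73, and the ranges of this pair overlapped. Dbp (10.4 ± 1.79) and Cry2 (9.13 ± 0.481) formed the next step, overlapping each other but not Nr1d1 above. Cry1, Nr1d2 and Clock lay together at 6.67 ± 0.481, 6.59 ± 0.70 and 6.47 ± 0.784 CPM per kb, and none of them reached the Cry2 libraries. Per3 (4.44 ± 1.04), Arntl (3.69 ± 0.454) and Per2 (3.45 ± 0.579) were lowest, and each overlapped its neighbour in the order, with Per3 also reaching the range of Clock. Per1 and Nr1d1 led and Per2 and Arntl closed the order in TA and TD also. In TD, Cry2 (9.58 ± 0.194 CPM per kb) stood above Dbp (8.37 ± 0.903), while in WT their ranges overlapped. The TD ranges nearly touched, with the lowest Cry2 library at 9.3 and the highest Dbp library at 9.26 CPM per kb.

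**Figure D1:**
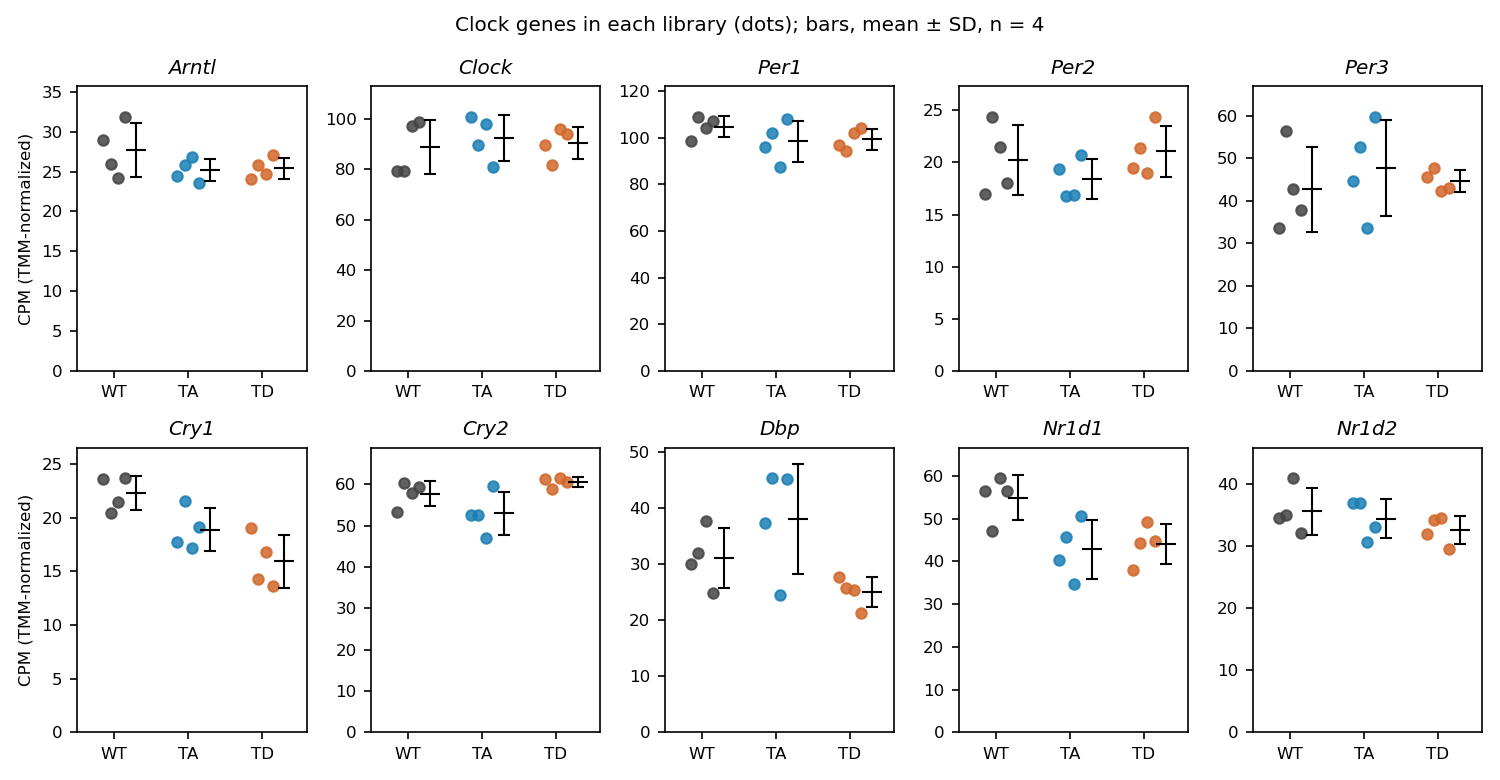
Level of each clock gene (vertical axis, CPM, starting at 0) in the 4 WT, 4 TA and 4 TD libraries (dots), with mean and SD as bars. The 4 TD libraries lie below all WT libraries for Cry1 (13.6 to 19 against 20.4 to 23.7 CPM), and Dbp is spread most in TA (24.6 to 45.4 CPM).

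The first comparison asks whether the phosphomimetic TD changes the clock genes relative to WT. With edgeR's quasi-likelihood test on all genes (Benjamini-Hochberg adjusted p under 0.05), Cry1 and Nr1d1 were lower in TD and no clock gene was higher. Of all genes tested, 29.2% were called in this comparison, 14.2% lower and 15.1% higher, so that 2 of 10 is not above the background. The median log2 fold change of the 10 genes was -0.103, against 0.011 for all genes. The median size of the change, whatever its sign, was 0.10 for the clock genes and 0.24 for all genes on the log2 scale. The same measure was 0.14 and 0.16 in TA against WT, where they were close, and 0.09 and 0.2 in TD against TA. No clock gene was higher at an unadjusted p under 0.05 either, and DESeq2 gave the same counts of 0 higher and 2 lower.

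In the comparison of TA, in which the residue cannot be phosphorylated, with WT, Nr1d1 alone was called, in the lower direction. The background was 11.1% of genes called, 4.41% lower and 6.72% higher. The median of the 10 genes was -0.108 against -0.006 for all genes. No clock gene was higher at an unadjusted p under 0.05 by edgeR, and DESeq2 also called 1 lower and 0 higher. Between the mutants, Dbp was lower in TD than in TA and no other clock gene was called, where 16.7% of all genes were called, 9.37% lower and 7.33% higher. At an unadjusted p under 0.05, 1 clock gene was higher in TD than in TA (Cry2) and 2 were lower (Dbp and Cry1), and DESeq2 called 0 higher and 1 lower. The comparisons share libraries, so their values stand side by side and are not independent of each other.

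**Figure D2:**
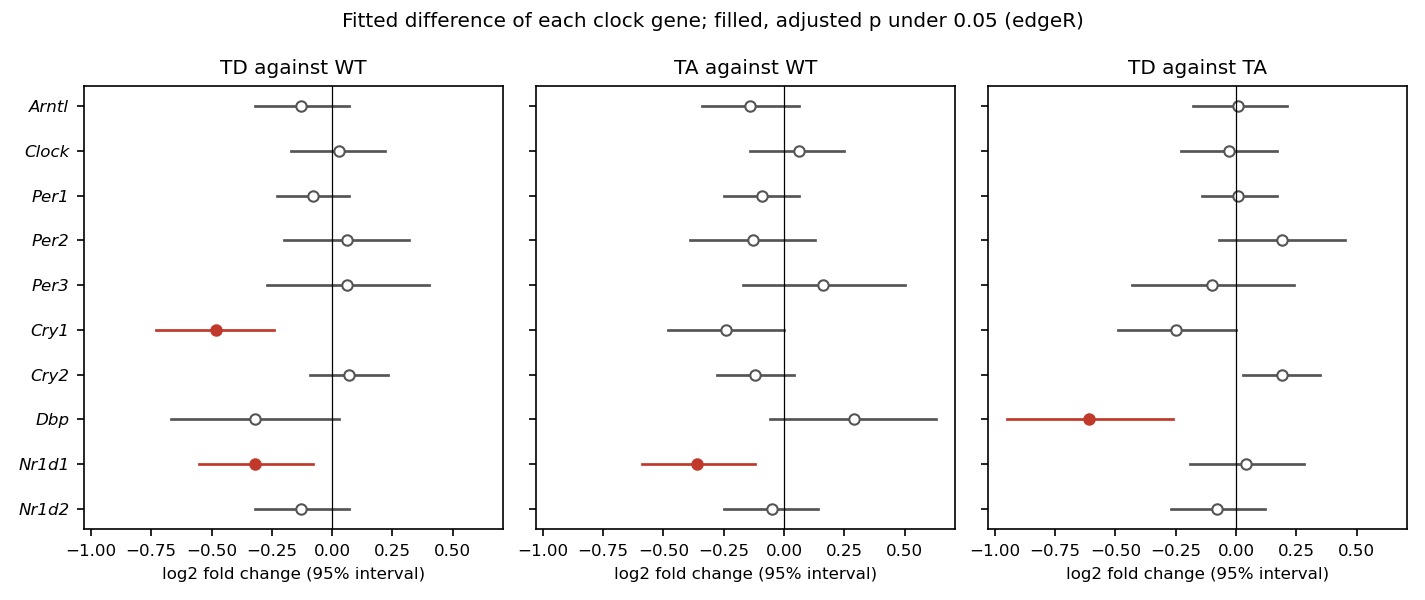
Fitted log2 fold change of each clock gene (horizontal axis) with its 95% interval, in 3 panels for TD against WT, TA against WT and TD against TA. Filled red points have an adjusted p under 0.05 (edgeR): Cry1 (-0.48) and Nr1d1 (-0.32) in the first panel, Nr1d1 (-0.36) in the second and Dbp (-0.61) in the third, and the other intervals reach 0 except those of Cry2 and, narrowly, Cry1 in the third panel.

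Among the repressors, Cry1 encodes a cryptochrome that holds the ARNTL and CLOCK pair inactive late in the cycle. Cry1 was at 23.6, 20.4, 21.5 and 23.7 CPM in WT, 17.7, 21.6, 17.2 and 19.1 CPM in TA, and 19, 14.3, 16.8 and 13.6 CPM in TD. Every TD library lay below every WT library, and TA lay between them and overlapped both. Libraries that do not overlap were found for 32.2% of all genes in this comparison, and Cry1 was the only clock gene among them. The mean fell from 22.3 ± 1.61 CPM in WT to 15.9 ± 2.44 in TD (SD, n = 4), a log2 fold change of -0.48 (SE 0.11, edgeR adjusted p = 0.00485). Over 19 other settings of the analysis (scaling, filter, tool, block or 1 library left out) the change ran from -0.58 to -0.42 and the adjusted p from 0.000613 to 0.0215. Without TD replicates 3 and 4, the libraries with most muscle marker counts, which leaves 2 TD libraries, it was -0.42 with an adjusted p of 0.0744. The values of Cry1 in TA (18.9 ± 2.0 CPM) gave -0.24 against WT (adjusted p = 0.205) and -0.25 for TD against TA (adjusted p = 0.154).

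The other cryptochrome, Cry2, did not pass the test in any comparison. Cry2 was at 53.4, 60.2, 57.8 and 59.3 CPM in WT, 52.6, 52.6, 47.0 and 59.6 CPM in TA, and 61.3, 58.8, 61.5 and 60.6 CPM in TD. The TD libraries lay close together and above 3 of the 4 TA libraries. TD against TA gave 0.19 (95% interval 0.03 to 0.35, adjusted p = 0.0887). This value passed the threshold when library totals replaced TMM (0.27, adjusted p = 0.0209) and without TA replicate 4 (0.26, adjusted p = 0.0198). Against WT, Cry2 gave 0.07 (-0.09 to 0.23) in TD and -0.12 (-0.28 to 0.04) in TA.

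The Per genes encode the partners of the cryptochromes in the repressor complex, and Per1 and Per2 also answer to glucocorticoids and cAMP. None of them passed the test. Per1 was at 98.6 to 109 CPM in WT, 87.3 to 108 in TA and 94.2 to 104 in TD, the narrowest spread of the WT libraries among the 10 genes (4.5% coefficient of variation). Its 95% intervals against WT were -0.23 to 0.07 in TD and -0.25 to 0.06 in TA on the log2 scale, so that changes beyond about these sizes are outside them.

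Per2 was at 17.0 to 24.4 CPM in WT, 16.8 to 20.7 in TA and 19 to 24.4 in TD, with log2 fold changes of 0.06 (-0.20 to 0.32) for TD and -0.13 (-0.39 to 0.13) for TA against WT. Per3 had the widest spread of the Per genes in WT and TA, but not in TD. Per3 was at 33.6, 56.5, 42.7 and 37.8 CPM in WT, 44.7, 52.7, 33.7 and 59.8 CPM in TA, and 45.5, 47.8, 42.2 and 42.9 CPM in TD. WT and TA libraries differed among themselves by 1.68 and 1.77 times from lowest to highest, and TD libraries by 1.13 times. The genotypes overlapped, with 0.06 (-0.27 to 0.40) for TD and 0.16 (-0.17 to 0.50) for TA against WT.

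Of the activators, neither Arntl nor Clock passed the test. Arntl was at 28.9, 25.9, 24.2 and 31.9 CPM in WT, 24.5, 25.8, 26.8 and 23.6 CPM in TA, and 24.1, 25.8, 24.7 and 27.1 CPM in TD. WT replicates 1 and 4 exceeded all mutant libraries, and the other WT libraries lay among them. The differences from WT were -0.13 (-0.32 to 0.07) in TD and -0.14 (-0.34 to 0.06) in TA, with adjusted p of 0.329 and 0.38. Clock was at 79.4 to 98.9 CPM in WT, 81.1 to 101 in TA and 81.7 to 96.0 in TD, with 0.03 (-0.17 to 0.22) for TD and 0.06 (-0.14 to 0.25) for TA.

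In the stabilising arm, Nr1d1 encodes REV-ERBα, a heme receptor that represses Arntl and is itself induced during adipogenesis. Nr1d1 was at 56.4, 47.2, 59.5 and 56.5 CPM in WT, 40.3, 45.6, 34.7 and 50.7 CPM in TA, and 38.0, 44.3, 49.3 and 44.8 CPM in TD. WT replicates 1, 3 and 4 were higher than all 8 mutant libraries, and WT replicate 2 lay within both mutant ranges, so the genotypes overlapped. The mean was 54.9 ± 5.32 CPM in WT, 42.8 ± 6.86 in TA and 44.1 ± 4.65 in TD. Nr1d1 fell by 0.32 on the log2 scale in TD (SE 0.11, edgeR adjusted p = 0.0415) and by 0.36 in TA (SE 0.11, adjusted p = 0.0476).

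Both calls of Nr1d1 are close to the threshold, which 10 of the 19 other settings passed for TD and 9 of 19 for TA. The adjusted p ran from 0.00662 to 0.119 and from 0.00214 to 0.128, and the change from -0.38 to -0.25 and from -0.46 to -0.27. With the replicate number as a block the adjusted p was 0.051 in TD and 0.0601 in TA. With library totals in place of TMM it was 0.0921 in TD, and in a fit on WT and TA only it was 0.0738 in TA. Without TD replicates 3 and 4 it was 0.0743 in TD and 0.0591 in TA. For TD the call ended without WT replicate 1 (adjusted p = 0.0987), WT replicate 3 (0.109), WT replicate 4 (0.0879), TA replicate 1 (0.0518), TD replicate 1 (0.119), TD replicate 2 (0.0764) or TD replicate 4 (0.0775). For TA it ended without WT replicate 1 (0.105), WT replicate 3 (0.119), WT replicate 4 (0.102), TA replicate 1 (0.122), TA replicate 3 (0.128), TD replicate 2 (0.0638), TD replicate 3 (0.0533) or TD replicate 4 (0.0588). The direction was negative in all of them. TD against TA gave 0.04 (95% interval -0.19 to 0.28).

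Nr1d1 (chr11:98767932-98775333, minus strand) overlaps the gene Thra, the thyroid hormone receptor α, on the opposite strand, over 263 exonic bases or 8.55% of its exons. Whether the reads were counted by strand is not given in the sources used here. Reads of this stretch could be assigned to either gene or counted for neither. Thra was measured at 83.7 ± 4.96 CPM in WT, 98.0 ± 6.42 in TA and 95.2 ± 2.12 in TD. Thra was thus higher in both mutants, by 0.19 in TD (adjusted p = 0.0499) and 0.23 in TA (adjusted p = 0.0399), in the opposite direction to Nr1d1.

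The paralog Nr1d2 did not follow Nr1d1 past the threshold. Nr1d2 was at 34.5, 35.1, 41.0 and 32.1 CPM in WT, 37.0, 37.0, 30.7 and 33.1 CPM in TA, and 32.0, 34.3, 34.6 and 29.6 CPM in TD. All 3 genotypes overlapped, with -0.13 (-0.32 to 0.07, adjusted p = 0.321) for TD and -0.05 (-0.25 to 0.14, adjusted p = 0.792) for TA against WT. The difference between the responses of the 2 paralogs was not tested.

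The output factor Dbp, a PAR bZIP protein that carries the rhythm to metabolic genes, was the member that differed between the mutants. Dbp was at 30.1, 32.1, 37.7 and 24.8 CPM in WT, 37.3, 45.4, 24.6 and 45.2 CPM in TA, and 27.7, 25.8, 25.4 and 21.3 CPM in TD. Of the TA libraries 3 exceeded all TD libraries and TA replicate 3 lay inside the TD range, so the groups overlapped. The share of all genes whose libraries did not overlap was 19.9% for TD against TA and 13.6% for TA against WT, and no clock gene was among them. The mean was 38.1 ± 9.78 CPM in TA and 25.0 ± 2.70 in TD, a log2 fold change of -0.61 (SE 0.16, edgeR adjusted p = 0.0194).

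This difference passed the threshold in 16 of the 19 other settings, with adjusted p from 3.63e-07, with no filter on low counts, to 0.0755. It did not without TA replicate 2 (-0.51, adjusted p = 0.0755), TA replicate 4 (-0.50, adjusted p = 0.0676) or TD replicate 4 (-0.54, adjusted p = 0.069), nor without TD replicates 3 and 4 together (-0.51, adjusted p = 0.202). WT lay between the mutants (31.2 ± 5.35 CPM), and neither mutant differed from it by the test, with -0.32 in TD (95% interval -0.67 to 0.03, adjusted p = 0.164) and 0.29 in TA (-0.06 to 0.63, adjusted p = 0.292). Without TA replicate 3 the value in TA was 0.45 with an adjusted p of 0.0319, and with no filter on low counts the value in TD had an adjusted p of 0.0163. TA replicate 3 also had the lowest adipocyte sum (12400 CPM) and the highest sums of macrophage (559 CPM) and fibroblast markers (5030 CPM) among the TA libraries, and the part of these in its Dbp level was not tested.

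Dbp (chr7:45705088-45710203, plus strand) shares 539 exonic bases, 18.0% of its exons, with Sphk2, sphingosine kinase 2, on the opposite strand. Sphk2 moved in the same direction as Dbp, from 61.5 ± 7.56 CPM in TA to 46.6 ± 2.70 in TD (-0.40, SE 0.09, adjusted p = 0.0057), with 54.7 ± 3.37 CPM in WT. Reads of the shared stretch cannot be told apart without strand, so the Dbp value is uncertain to that extent. Cry2 shares 295 exonic bases with the antisense transcript D930015M05Rik, which had a mean of 27.2 counts a library against 1044 for Cry2.

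The libraries were then examined for a shared clock phase. A phase contrast was computed for each library as the mean of log2 CPM of Dbp, Nr1d1, Nr1d2 and Per3 minus that of Arntl, each relative to the 12-library mean, so that a high value means high Dbp, Nr1d and Per3 with low Arntl. The contrast was -0.185, 0.125, 0.32 and -0.382 in WT, 0.137, 0.239, -0.362 and 0.41 in TA, and -0.0117, -0.0379, 0.0156 and -0.266 in TD. The WT libraries and the TA libraries each spread over both signs, and the TD libraries lay closer together, within the range of WT and of TA. The means were -0.0307 ± 0.313 in WT, 0.106 ± 0.332 in TA and -0.075 ± 0.129 in TD (SD, n = 4), and all ranges overlapped. No test was run on this contrast, and an amplitude or a phase cannot be had from 1 time point.

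Within each genotype, the library with the highest Arntl was the library with the lowest Dbp and the lowest Nr1d2. In WT this was replicate 4, with Arntl at 31.9, Dbp at 24.8 and Nr1d2 at 32.1 CPM. In TA it was replicate 3, with Arntl at 26.8, Dbp at 24.6 and Nr1d2 at 30.7 CPM. In TD it was replicate 4, with Arntl at 27.1, Dbp at 21.3 and Nr1d2 at 29.6 CPM. Nr1d1 and Per3 followed this only in TA, since the lowest Nr1d1 was in WT replicate 2 and TD replicate 1, and the lowest Per3 in WT replicate 1 and TD replicate 3. At the other end, the library with the lowest Arntl had the highest Dbp in WT (replicate 3, 37.7 CPM) and TD (replicate 1, 27.7 CPM), and in TA Dbp in that library (replicate 4, 45.2 CPM) was next to the highest (45.4 CPM). The order was noticed in these values and not tested.

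The libraries at the ends of this order differed in several members at once. TA replicate 3 was the lowest TA library in 7 of the 10 genes (Per1, Per3, Cry1, Cry2, Dbp, Nr1d1 and Nr1d2), and TA replicate 4 was the highest in 5 (Per1, Per2, Per3, Cry2 and Nr1d1). WT replicate 3 was the highest WT library for Dbp, Nr1d1 and Nr1d2 and the lowest for Arntl, while WT replicate 4 was the highest for Arntl, Clock and Cry1. A second pattern appeared in WT, where replicate 2 was the highest and replicate 1 the lowest in the same 4 genes, Per1, Per2, Per3 and Cry2. In TD, replicate 4 was highest for Arntl, Per1 and Per2 and lowest for Cry1, Dbp and Nr1d2. Tef, a PAR bZIP factor related to Dbp, was also lowest in the library with the highest Arntl, at 109 CPM in WT replicate 4, 119 CPM in TA replicate 3 and 104 CPM in TD replicate 4. Hlf, another D-box factor, was lowest in that library in TD only (4.92 CPM), and was at 7.24 CPM in TA replicate 3. Nfil3, which represses at D-boxes, was lowest in that library in WT (73.3 CPM) and TA (75.3 CPM) but not in TD. Npas2, which can replace CLOCK as partner of ARNTL, was lowest in that library in TA but highest in TD.

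**Figure D3:**
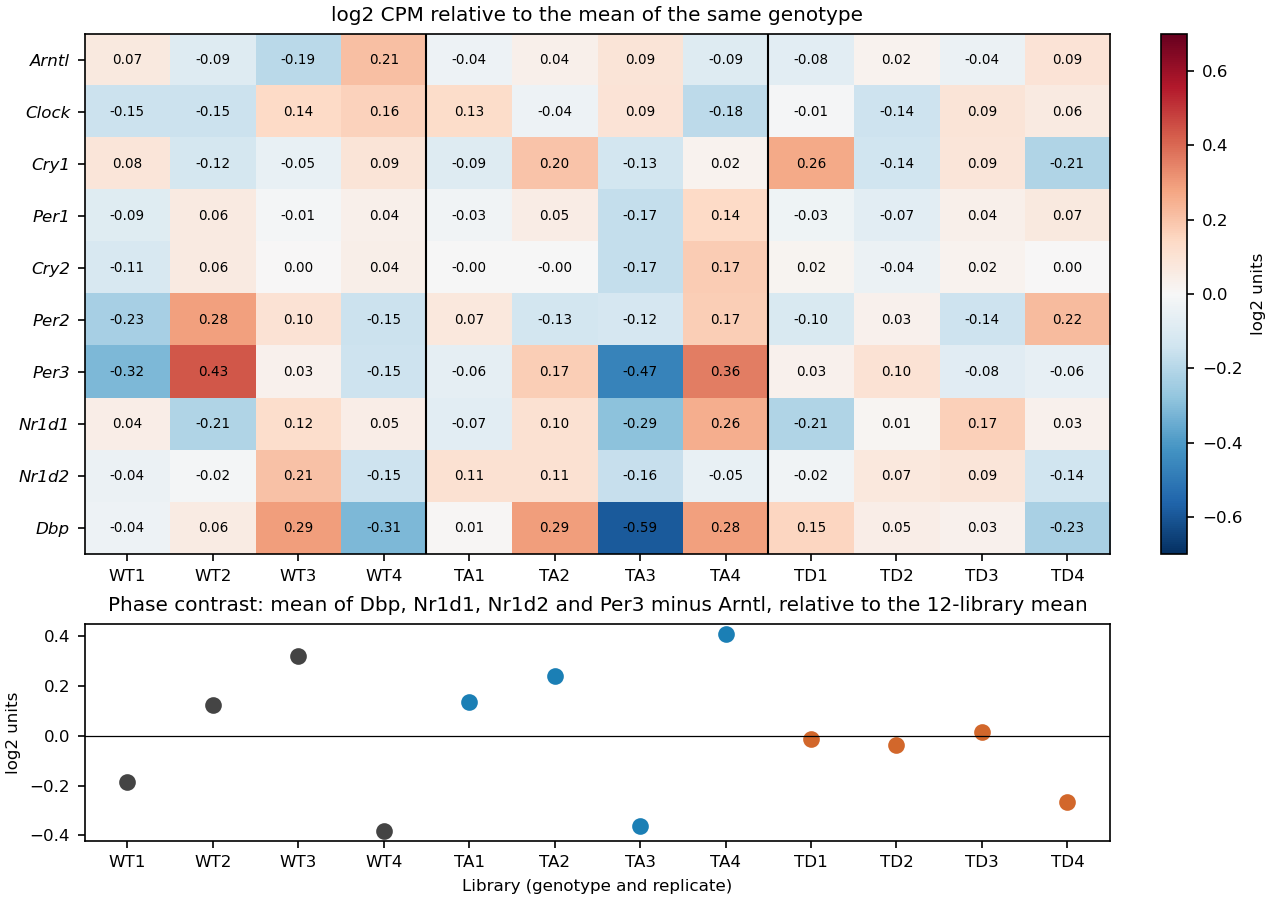
Upper panel, log2 CPM of each clock gene (rows) in each library (columns) relative to the mean of its genotype, with red above and blue below it. Lower panel, the phase contrast of each library in log2 units; WT runs from -0.382 to 0.32, TA from -0.362 to 0.41 and TD from -0.266 to 0.0156, so the genotypes overlap.

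The spread of the members was set beside that of other genes with mean levels in the same range. The median coefficient of variation of the clock genes was 11.4% in WT, 10.0% in TA and 7.07% in TD, and that of the other genes was 8.10%, 9.73% and 6.76%. The median of the clock genes was thus above that of the other genes in WT and close to it in TA and TD, with no test made. Dbp in TA (25.6%), Per3 in TA (23.5%) and Per3 in WT (23.4%) varied most.

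Likeness of pattern was measured as Pearson's r of log2 CPM over the 12 libraries among the 10539 genes that averaged 5 CPM or more, as a description. The values mix differences between genotypes with those between libraries. For Arntl the highest were Hspa8 (0.882), a heat shock cognate chaperone, Evi5l (0.846) and Nsfl1c (0.842), and the lowest Phf10 (-0.879), Zfp870 (-0.874) and Tmem159 (-0.872). For Dbp the highest were Kif1c (0.928), Gys1 (0.92), the glycogen synthase of muscle and fat, and Kiz (0.915), and the lowest Actn1 (-0.917), Plk2 (-0.903) and Dis3 (-0.903). Tef had an r of 0.908 with Dbp, and Hlf had one of -0.146. The members were left out of these rankings. Clock, the partner of Arntl, had an r of 0.081 with it, and the members ran from -0.58 (Per3) to 0.317 (Cry1).

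The other 30 genes of the clock pathway that were listed, which include paralogs, kinases, ubiquitin ligases and cofactors of the loop, were all tested. In TD against WT 3 were higher and 2 lower, in TA against WT none was called, and in TD against TA 1 was higher and 2 were lower. These shares (16.7%, 0.0% and 10.0%) were below the backgrounds given above. At an unadjusted p under 0.05 there were 6 in TA against WT, fewer than the 25.2% of all genes would give, and DESeq2 called 1 higher and 1 lower there. The median log2 fold changes of the list were -0.015, 0.019 and -0.002 in the 3 comparisons, against 0.011, -0.006 and 0.023 for all genes. Without TD replicates 3 and 4, 2 were higher and 1 lower in TD against WT and 1 was lower in TD against TA. That fit called fewer of all genes also. Of 15673 genes, 837 were higher and 679 lower in TD against WT, where the main fit called 2276 and 2142 of 15117. In TD against TA, 186 were higher and 448 lower, where the main fit called 1108 and 1416.

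Rora, an activator that competes with NR1D receptors for the ROR element, was at 135 ± 23.9 CPM in WT and 117 ± 2.83 in TD, and was not called in any comparison.

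Among the D-box factors, Hlf rose in TD against WT by 0.92 (SE 0.25, adjusted p = 0.0107), from 3.89 ± 0.929 to 7.39 ± 2.71 CPM, with overlapping libraries. In TA Hlf was at 6.22 ± 1.25 CPM (0.67, adjusted p = 0.0961). Tef was lower in TD than in TA by 0.34 (SE 0.09, adjusted p = 0.0168), at 109 ± 7.67 against 138 ± 16 CPM, the same comparison and direction as Dbp, and was at 123 ± 10.7 CPM in WT. Nfil3, the repressor at D-boxes, was at 81.0 ± 5.51, 84.0 ± 6.32 and 89.4 ± 7.27 CPM in WT, TA and TD and was not called. Usp2, a deubiquitinase under clock control, had the largest fall of the list in TD against TA (-0.58, SE 0.11, adjusted p = 0.00173), from 57.9 ± 10.4 to 38.6 ± 1.32 CPM. The largest rise there was that of Crebbp, a histone acetyltransferase, with 0.33 (adjusted p = 0.00835).

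The remaining factors of the loops were not called in any comparison. Npas2 was at 11.2 ± 1.32, 12.3 ± 0.522 and 11.3 ± 1.55 CPM in WT, TA and TD. The E-box repressors Ciart (4.65 ± 1.10, 5.48 ± 1.24 and 4.34 ± 0.976 CPM), Bhlhe40 (159 ± 15.5, 173 ± 20.9 and 165 ± 6.51 CPM) and Bhlhe41 (2.25 ± 0.477, 1.49 ± 0.527 and 2.15 ± 0.42 CPM) varied within overlapping ranges.

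The next list held 14 genes known as outputs of the clock in several tissues. Like the other lists, it was chosen with earlier results of these data known. The shares of the lists beside those of all genes are therefore a description only. In TD against WT 8 of 14 were lower and none higher (57.1%, against 29.2% of all genes in either direction and 14.2% lower), and in TD against TA 8 were lower (57.1% against 16.7%, and 9.37% lower). In TA against WT 2 were higher and none lower. The median log2 fold changes were -0.335, -0.385 and -0.053 for TD against WT, TD against TA and TA against WT. Without TD replicates 3 and 4 the counts were 3 lower in TD against WT and 5 lower in TD against TA. In that fit 679 and 448 of all 15673 genes were lower in these comparisons, fewer than in the main fit.

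The largest falls were those of Elovl3, a fatty acid elongase of brown and beige fat, with -2.13 in TD against WT (SE 0.21, adjusted p = 2.92e-05) and -2.74 against TA (adjusted p = 6.73e-07). Elovl3 was at 20.6 to 45.0 CPM in WT, 41.7 to 59.3 in TA and 5.87 to 8.62 in TD, with TD apart from both. Gys2, a glycogen synthase, had the largest rise in TA (1.68, SE 0.21, adjusted p = 7.47e-05), at 6.5 ± 1.65 against 2.02 ± 0.34 CPM in WT. Elovl3 and other genes of this list, such as Lpin1 and Pdk4, are also known as genes of lipid metabolism and targets of PPAR receptors, and the list shares Tef, Usp2 and Ciart with the list of pathway genes. The adipocyte marker sum was lower in TD in the same libraries, and its part in these values was not tested.

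Targets of known inputs to the clock were examined because dexamethasone and IBMX were in the induction medium, although not in the maintenance medium that followed it until harvest. Of 12 genes induced by glucocorticoids, Per1 included, 4 were higher and 4 lower in TD against WT, 2 were lower in TA against WT, and 3 were higher and 1 lower in TD against TA, with medians of -0.064, -0.217 and 0.104. These are 66.7%, 16.7% and 33.3% of the list, against 29.2%, 11.1% and 16.7% of all genes. Fkbp5, a cochaperone of the glucocorticoid receptor and one of its strongest targets, had the largest fall in every comparison. Fkbp5 was at 1270 to 1420 CPM in WT, 826 to 1200 in TA and 782 to 868 in TD, with log2 fold changes of -0.68 in TD (SE 0.10, adjusted p = 0.000215) and -0.36 in TA (SE 0.10, adjusted p = 0.0282) against WT and of -0.32 between the mutants (adjusted p = 0.036). The largest rises were those of Hif3a in TD against WT (0.51, adjusted p = 0.00697) and Dusp1, a MAP kinase phosphatase, in TD against TA (0.62, adjusted p = 0.000368). The members of this list did not move in 1 direction, and Per1 was not called. Without TD replicates 3 and 4, 1 was higher and 1 lower in TD against WT, and 1 was higher in TD against TA. These counts stand beside the smaller counts of all genes called in that fit, given above.

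Of 18 immediate early and cAMP-responsive genes, 16 passed the filter, since Egr2 had 0 counts and Egr3 61 in all libraries together. In TD against WT 3 were higher and 2 lower, in TA against WT 2 higher and 3 lower, and in TD against TA 9 higher and 1 lower, with medians of 0.112, -0.344 and 0.536. These are 31.2%, 31.2% and 62.5% of the genes tested in the list, of which the first is near the 29.2% of all genes called, and the others stand beside 11.1% and 16.7%. Fos, a transcription factor induced by serum and cAMP, was at 30.2 ± 5.73 CPM in WT, 8.39 ± 1.13 in TA and 20.1 ± 2.15 in TD. Both mutants lay below all WT libraries, and Fos fell by 1.84 in TA (SE 0.14, adjusted p = 4.21e-07) and by 0.58 in TD (SE 0.13, adjusted p = 0.00386). Egr1, another such factor, was higher in TD than in TA by 1.51 (SE 0.18, adjusted p = 6.17e-05), at 47.1 ± 3.25 against 16.5 ± 3.55 CPM. The largest rise in TD against WT was that of Ier3 (0.81, adjusted p = 8.02e-05). Ppargc1a, a coactivator of PPARγ in thermogenic fat, rose in TA against WT (0.52, adjusted p = 0.00533) and was lower in TD than in TA by 0.81 (adjusted p = 0.000173). Per1 and Per2, which share these inputs, did not pass the test in the same libraries. Without TD replicates 3 and 4, 2 genes of this list were higher and 1 lower in TD against WT, and 5 were higher and 1 lower in TD against TA. Fewer of all genes were called in that fit also, as given above.

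**Figure D4:**
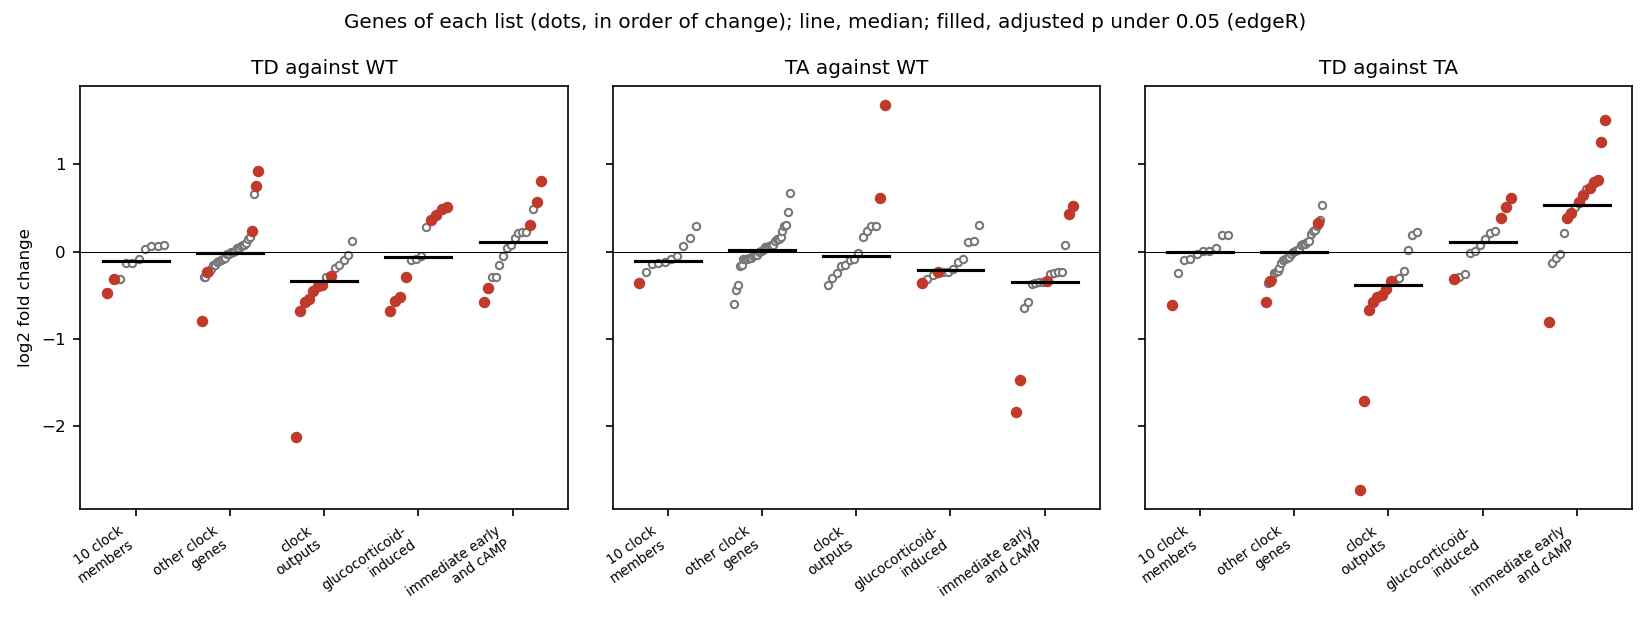
Log2 fold change (vertical axis) of every tested gene in 5 lists, in panels for TD against WT, TA against WT and TD against TA, with the median as a line and genes past an adjusted p of 0.05 (edgeR) filled. The medians of the 10 clock genes are -0.103, -0.108 and -0.009, and those of the clock outputs are -0.335, -0.053 and -0.385.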

How the data were processed

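RNA-seq of 12 libraries of SVF-derived adipocytes, 4 per genotype, was used, with genotype and replicate taken from the sample labels. The authors aligned reads to GRCm38 and deposited raw read counts per gene, without normalization. The submitters' processing notes list bcl2fastq 2.17.1.14, cutadapt 1.9.1, HISAT2 2.0.1 and HTSeq 0.6.1, and the strand setting is not given in the sources used here. The table of the series and the files of the libraries differed in 0 values.

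Counts were analysed in R (version 4.3.3). The packages were DESeq2 (1.42.0), limma (3.58.1) and edgeR (4.0.16), whose filterByExpr (minimum count 10, minimum total 15) left 15117 genes. TMM factors ran from 0.957 to 1.04. A quasi-likelihood model of genotype was fitted to all 12 libraries, tests were two-sided, and p-values were adjusted by Benjamini-Hochberg over all genes tested. Biological variation over all genes was 12.9%. Log2 CPM used a prior count of 2, and exon lengths and overlaps came from GENCODE M21. The steps were tested on simulated data. Replicates differed by more than sampling noise (chi-square per degree of freedom 4.95 to 38.7 over 18 pairs). Total counts limit precision through counting error only.

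The members, the lists (other clock genes, clock outputs, glucocorticoid-induced genes, immediate early and cAMP genes) and the markers were chosen with earlier results of these data known. Named are all members, factors of the loops, the called gene with the largest rise and fall of each list in each comparison, and the 3 genes most and least like Arntl and Dbp. A result that this rule names is not reported here. Sphk2, Thra, Lpin1, Pdk4, Egr2, Egr3 and the sites of Per1, Cry2, Per3 and Arntl were added after values were seen. Alternatives were another scaling, filter, threshold or tool, fits on 2 genotypes, the replicate number as a block, and each library left out in turn. The fit without TD replicates 3 and 4 was chosen after seeing the data.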

Additional observations from a re-analysis of the deposited data

How the results depend on the processing

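No fold change of a clock gene that passed the test changed sign under any setting tried. Of the counts, those of genes lower in TD than in WT (2) became 1 with library totals, 1 with the replicate block and 1 at an adjusted p under 0.01, and 0 without TD replicates 3 and 4, and ran from 1 to 2 when 1 library was left out. Genes lower in TA than in WT (1) became 0 in a fit on 2 genotypes only, 0 with the replicate block, 0 at an adjusted p under 0.01 and 0 without TD replicates 3 and 4, and ran from 0 to 1 when 1 library was left out, as did genes higher in TA than in WT (0). Genes lower in TD than in TA (1) became 0 at an adjusted p under 0.01 and 0 without TD replicates 3 and 4, and ran from 0 to 1 when 1 library was left out. Genes higher in TD than in TA (0) became 1 with library totals and ran from 0 to 1 when 1 library was left out. The fit without TD replicates 3 and 4 rests on fewer samples, and otherwise the cause was not tested. It called fewer of all genes also, with 679 lower of 15673 in TD against WT, where the main fit called 2142 of 15117. In TA against WT it called 552 lower in place of 667, and in TD against TA 448 in place of 1416. Library totals moved the median of all genes to 0.10 for TD against TA, 0.0789 for TD against WT and -0.0146 for TA against WT. Same-numbered libraries correlated from -0.237 to 0.196 after removal of genotype means. Libraries with different numbers were not compared in this way, so these values cannot decide whether replicate numbers pair the samples. The block changed no call of a clock gene but those of Nr1d1. The DESeq2 test, DESeq2 size factors and a minimum of 10 counts in every library left the 6 counts as they were, and with no filter on low counts 3 genes in place of 2 were lower in TD than in WT, Dbp being added.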
